A study of Mus musculus with 6 samples.

Results

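The CC chemokine genes that macrophages are known to express were followed in 6 RNA-seq libraries of macrophages sorted from the mouse mammary gland. The genes were *Ccl2*, *Ccl3*, *Ccl4*, *Ccl5*, *Ccl6*, *Ccl7*, *Ccl8*, *Ccl9*, *Ccl12* and *Ccl24*, chosen by gene symbol, which are 10 of the 24061 genes counted. All 10 were present and all passed the filter on low counts. The study sorted CD45+CD11b+F4/80+ cells from the inguinal mammary glands of nulliparous FVB/N mice into cells with and without Lyve-1, a receptor for hyaluronan, and asked whether the subsets have distinct transcriptional profiles. There were 3 Lyve-1+ and 3 Lyve-1- libraries, and each held cells pooled from 4 mice. In both subsets the replicate numbered 1 came from 6-week-old animals and the other 2 from 10-week-old animals. The labels name no transgene or treatment in any group, and lymph nodes were taken out before the glands were digested with collagenase. The labels do not say whether libraries with the same number came from the same mice.

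CC chemokines are small secreted proteins with a pair of adjacent cysteines. They bind G-protein-coupled receptors on leukocytes and direct the cells along a gradient. Tissue macrophages are a major source of them. Some members, such as *Ccl2* and *Ccl3*, are induced within hours by inflammatory stimuli, and others, such as *Ccl6* and *Ccl9*, are made by resting macrophages. In the mouse most of these genes lie in clusters that arose by gene duplication.

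Library totals ran from 6478007 to 21406839 counts, and the 10 genes together took 0.298% to 0.725% of them. Levels are given as CPM, the count scaled to the library's size after TMM normalization. Where no read was counted, the upper limit was 3 counts, or 0.144 to 0.437 CPM by library, for counting error only. *Lyve1* itself was at 1.43 to 7.44 CPM in the Lyve-1- libraries and at 597 to 2352 CPM in the Lyve-1+ libraries, so the labels held in every library. *Emr1* (F4/80), *Itgam* (CD11b) and *Ptprc* (CD45), the other genes of the sort, were counted in all libraries, with *Emr1* at 201 to 390.4 CPM. Of 1122 olfactory receptor genes, which macrophages are not known to use, Lyve-1- replicate 3 had counts for 652 and Lyve-1+ replicate 1 for 370, against 4 to 134 in the other libraries. Results are therefore also given without these 2 libraries where that moves them.

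On mm10, 9 of the 10 genes lie on chromosome 11 in 2 groups. *Ccl2* (82035571 to 82037453), *Ccl7* (82045712 to 82047525), *Ccl12* (82101845 to 82103400) and *Ccl8* (82115185 to 82116799) are on the plus strand in that order, and *Ccl11*, which is no member, lies between *Ccl7* and *Ccl12*. *Ccl5* (83525778 to 83530518), *Ccl9* (83572919 to 83578636), *Ccl6* (83587882 to 83593087) and *Ccl3* (83647844 to 83649355) are on the minus strand, followed by *Ccl4* (83662584 to 83664683) on the plus strand. *Ccl24* is on the minus strand of chromosome 5 (135569937 to 135573049). Despite their common origin, 9 of the 10 genes had no stretch of 50 bases, the read length of the study, in common with annotated transcripts of any other gene. *Ccl9* had 1.97% of its stretches in common with transcripts of other genes. *Ccl6* overlaps the noncoding gene *E230016K23Rik* on the opposite strand, which had 15 to 109 counts per library against 6931 to 40921 for *Ccl6*. The strand setting of the counting is not given in the sources used here, so reads from the overlap cannot be assigned to either gene with certainty.

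The start sites of *Ccl8* and *Ccl12* are close neighbours on the same strand, and these genes showed unlike subset differences, so the 100 bases before each start site are printed here (RefSeq, GRCm38.p6, 5′ to 3′, plus strand for both). The same stretch of *Ccl9*, the gene with the steadiest level, is printed beside them (minus strand). Capitals mark matches to the TATA-box letters TATAAA on either strand or to the kappaB motif, the site of NF-kB. The stretches are chr11:82115085-82115184 for *Ccl8*, chr11:82101745-82101844 for *Ccl12* and chr11:83578637-83578736 for *Ccl9*.
Ccl8: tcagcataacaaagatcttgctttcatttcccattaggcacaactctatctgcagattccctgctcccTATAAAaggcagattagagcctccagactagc
Ccl12: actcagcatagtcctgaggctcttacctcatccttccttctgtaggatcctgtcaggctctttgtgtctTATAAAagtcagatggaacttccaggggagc
Ccl9: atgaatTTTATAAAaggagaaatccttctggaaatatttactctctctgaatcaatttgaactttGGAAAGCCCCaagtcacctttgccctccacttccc
The TATAAA match began 32 bases before the start site of *Ccl8* and 31 bases before that of *Ccl12*, on the gene's strand, and *Ccl9* had overlapping matches on both strands from 94 to 87 bases before its start site. Within 250 bases before to 50 after the start site, 13.6% of 32851 promoters held TATAAA on either strand. The promoter table held 5 of the 10 genes (*Ccl3*, *Ccl6*, *Ccl8*, *Ccl9* and *Ccl12*). The kappaB motif, searched on both strands, was matched in the *Ccl9* window, where it lay 35 to 26 bases before the start site, and in none of the other 4. It was found in 8.46% of all promoters. The AP-1 letters TGANTCA were matched in *Ccl9* alone of the 5 (7.81% of all promoters), GAGGAA in *Ccl3*, *Ccl8* and *Ccl12* (28.3%), and the interferon-stimulated response element in none (3.44%). A match describes letters and not binding.

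Measured per kilobase of annotated exon, so that genes can be compared, these were abundant transcripts. Their mean levels lay between the percentiles 91.5 and 99.9 of the genes tested that had an annotated exon length. In the Lyve-1- subset the order began with *Ccl6* at 649.6 ± 113 CPM per kb (SD, n = 3) and *Ccl2* at 632 ± 289, followed by *Ccl7* at 421 ± 192 and *Ccl9* at 327 ± 16.9. It went on with *Ccl3*, *Ccl4*, *Ccl5*, *Ccl12* and *Ccl8*, and ended with *Ccl24* at 13.2 ± 4.4. In the Lyve-1+ subset the first genes were the same, with *Ccl6* at 1121 ± 554 CPM per kb (SD, n = 3), *Ccl2* at 1015 ± 475, *Ccl7* at 883 ± 399 and *Ccl9* at 369 ± 100.5. *Ccl8* stood sixth there at 242 ± 119, and *Ccl5* stood last at 20.3 ± 18.4. Neighbours in these orders had overlapping libraries, except *Ccl8* and *Ccl24* in the Lyve-1- subset and *Ccl7* and *Ccl9* in the Lyve-1+ subset.

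*Ccl6*, *Ccl9*, *Ccl2* and *Ccl7* together held 83.3% to 90.7% of the counts of the 10 genes in each library, with *Ccl6* alone at 27.3% to 40.2%. The make-up of the remainder differed between the subsets. *Ccl5* held 1.1%, 2.92% and 7.93% in Lyve-1- replicates 1, 2 and 3 and 0.0415%, 0.612% and 0.57% in Lyve-1+ replicates 1, 2 and 3. *Ccl8* held 0.414%, 1.21% and 0.403% in the Lyve-1- libraries and 2.57%, 1.4% and 2.98% in the Lyve-1+ libraries. For both genes the subsets did not overlap in share. *Ccl24* held 0.326% to 0.555% and 0.432% to 2.99%, and its shares overlapped.

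**Figure D1:**
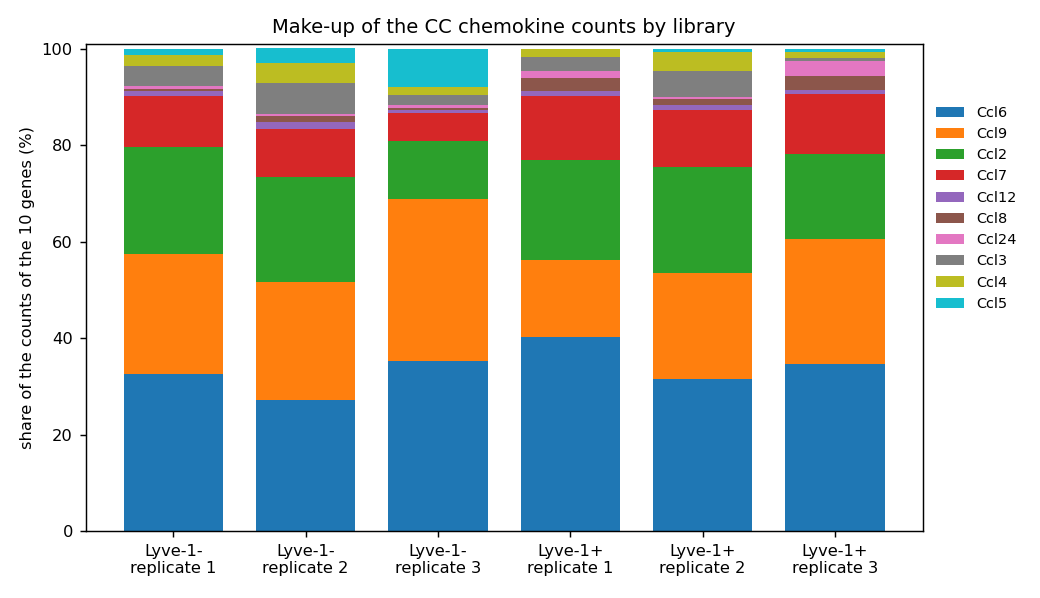
Stacked bars give each gene's percentage of the counts of the 10 CC chemokine genes in each of the 6 libraries. *Ccl6*, *Ccl9*, *Ccl2* and *Ccl7* fill 83.3% to 90.7% of every bar, and the *Ccl5* segment is largest in Lyve-1- replicate 3 at 7.93%.

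The subsets were compared with edgeR's quasi-likelihood test over all 13348 genes tested, with a call at an adjusted p under 0.01 and an absolute log2 fold change between 1 and 10. By this rule 0 of the 10 genes were called, where 0.112% of all genes were, 0.105% with higher and 0.00749% with lower Lyve-1+ levels. At an adjusted p under 0.05 there were also 0, against 0.629% of all genes. *Lyve1*, on which the cells were sorted, was not called at the 0.01 limit either (log2 fold change 7.93, edgeR adjusted p = 0.0254). The absence of a call therefore does not show that the subsets were alike. At an unadjusted p under 0.05 there were 5 of the 10, against 7.69% of all genes. These were *Ccl6*, *Ccl7*, *Ccl8* and *Ccl24* with higher Lyve-1+ levels, against 4.2% of all genes, and *Ccl5* with lower levels, against 3.5%. The subsets did not overlap for 3 genes, against 14.3% of all genes. *Ccl8* and *Ccl24* lay higher in every Lyve-1+ library, against 7.82% of all genes, and *Ccl5* lower, against 6.5%. The log2 fold change was above 0 for 9 of the 10 genes, and *Ccl5* was the exception. Above 0 lay 49.4% of all genes. The median over the 10 genes was 0.51, against -0.01 over all genes tested. DESeq2, the tool of the study, called *Ccl5* and *Ccl8* at the same limits, where it called 1.09% of all genes.

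**Figure D2:**
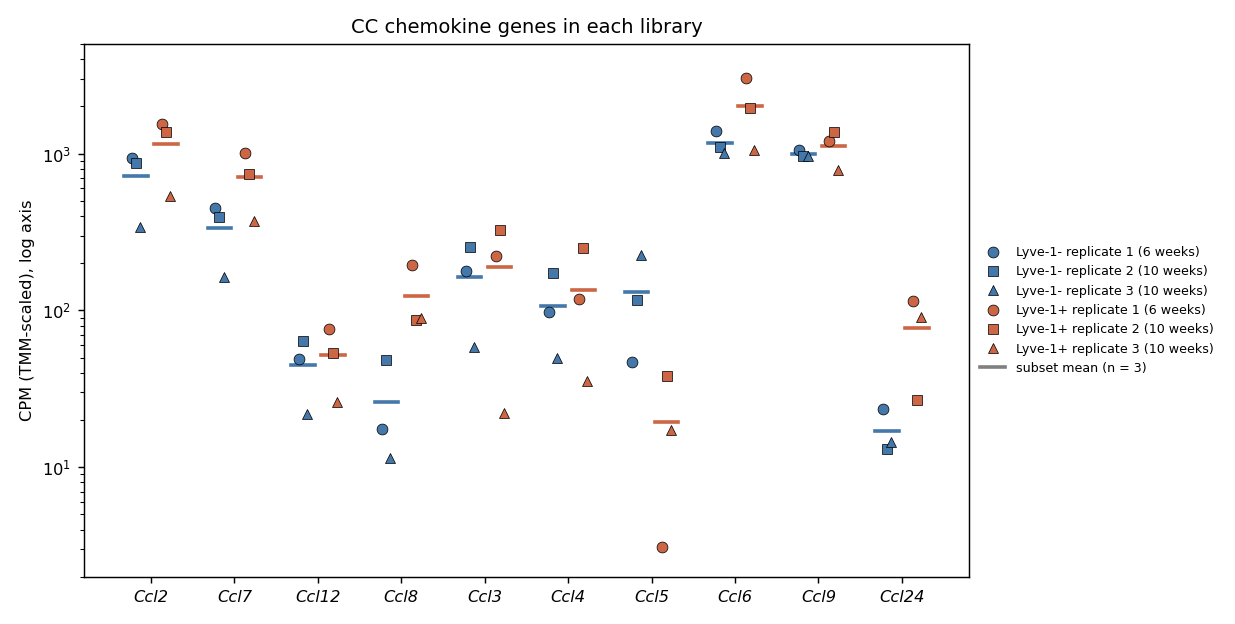
Each point is 1 library and gives the TMM-scaled CPM of a CC chemokine gene on a log axis, with a bar at the mean of each subset (n = 3). The subsets are apart for *Ccl8*, *Ccl24* and *Ccl5*, and *Ccl3* spans 22.3 to 325 CPM.

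*Ccl8* encodes a chemokine that in the mouse acts on the receptor CCR8. It was at 17.6, 48.5 and 11.52 CPM in Lyve-1- replicates 1, 2 and 3 and at 194, 87.2 and 90.1 CPM in Lyve-1+ replicates 1, 2 and 3. The lowest Lyve-1+ library was above the highest Lyve-1- library. The means were 25.9 ± 19.8 and 124 ± 60.6 CPM (SD, n = 3), with a log2 fold change of 2.25 (95% confidence interval 1.1 to 3.4, edgeR adjusted p = 0.0969). Over 16 alternatives its log2 fold change ran from 1.4 to 3.08 and its adjusted p from 3.49e-05 to 0.921. *Ccl8* was called without Lyve-1- replicate 2, the highest library of its subset (log2 fold change 3.08, edgeR adjusted p = 0.00113), and with DESeq2 (log2 fold change 2.21, DESeq2 adjusted p = 0.00468). The difference was 3.44 on the log2 scale between the libraries from 6-week-old mice. Over the 10-week libraries alone it was 1.53 (edgeR adjusted p = 0.877). It was 1.4 (edgeR adjusted p = 0.921) without the 2 libraries with the most olfactory receptor genes detected.

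*Ccl24* encodes eotaxin-2, which attracts eosinophils through CCR3 and is made by alternatively activated macrophages. Its levels were 23.6, 13.1 and 14.6 CPM in the Lyve-1- libraries and 114, 26.9 and 90.3 CPM in the Lyve-1+ libraries. The subsets did not overlap, but Lyve-1+ replicate 2 was close to Lyve-1- replicate 1. The means were 17.1 ± 5.7 and 77.2 ± 45.2 CPM (SD, n = 3), with a log2 fold change of 2.17 (95% confidence interval 1.03 to 3.31, edgeR adjusted p = 0.104). Without Lyve-1+ replicate 2 it was called, at 2.56 (edgeR adjusted p = 0.00415, with 0.00202 to 0.921 over all 16 alternatives). Without a filter on low counts it was called too, and with DESeq2 it was not (DESeq2 adjusted p = 0.0152). Over the 10-week libraries alone the log2 fold change of *Ccl24* was 2.07 (edgeR adjusted p = 0.585). It was 1.66 (edgeR adjusted p = 0.921) without the 2 libraries with the most olfactory receptor genes detected.

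Some macrophage markers differed in the same direction as *Ccl8* and *Ccl24*. Of the 8 markers listed, 7 were in the table under the listed symbol, 6 with a log2 fold change above 0 and 1 below. By edgeR 0 were called, and 4 had an unadjusted p under 0.05 with higher Lyve-1+ levels, against 4.2% of all genes, and no overlap, against 7.82%. The values ran from 1.66 for the complement gene *C1qa* to -0.36 for *Cd14*, part of the receptor complex for bacterial lipopolysaccharide. The summed level of the 7 was 2667 to 4438 CPM in the Lyve-1- libraries and 4143 to 6218 CPM in the Lyve-1+ libraries, and these ranges overlapped. *Emr1*, a gene of the sort, is not among the 7, and its log2 fold change was -0.29, below 0 as for *Cd14*. It was at 390.4, 272.1 and 293.5 CPM in the Lyve-1- libraries and at 338.8, 239.4 and 201.3 CPM in the Lyve-1+ libraries. The part of these markers in the chemokine differences was not tested. In sorted bulk samples, fewer cells of a type and less RNA per cell cannot be told apart.

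*Ccl2*, *Ccl7* and *Ccl12* encode monocyte chemoattractants that act mainly on CCR2. *Ccl2* was at 942 CPM, 874 CPM and 342 CPM in the Lyve-1- libraries and at 1555 CPM, 1372 CPM and 539.9 CPM in the Lyve-1+ libraries. The subsets overlapped, because replicate 3 was the lowest library in each. The log2 fold change was 0.68 (95% confidence interval -0.28 to 1.64, edgeR adjusted p = 0.921). *Ccl7* was at 452 CPM, 397 CPM and 163 CPM in the Lyve-1- libraries and at 1011 CPM, 737 CPM and 373 CPM in the Lyve-1+ libraries. It showed the same order of libraries within the Lyve-1- subset as *Ccl2*, and Lyve-1+ replicate 3 lay within the range of the Lyve-1- libraries. Its log2 fold change was 1.07 (95% confidence interval 0.16 to 1.97, edgeR adjusted p = 0.498). *Ccl12* was at 49.1 CPM, 63.6 CPM and 21.9 CPM in the Lyve-1- libraries and at 76.3 CPM, 53.9 CPM and 26.1 CPM in the Lyve-1+ libraries. Its log2 fold change was 0.22 (95% confidence interval -0.85 to 1.28, edgeR adjusted p = 1), which became -0.11 when Lyve-1- replicate 3 was left out and -0.14 when Lyve-1+ replicate 1 was.

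Without the 2 libraries with the most olfactory receptor genes detected, the log2 fold changes of *Ccl2*, *Ccl7* and *Ccl12* were 0.05, 0.36 and -0.52. The value for *Ccl2* was 0.35 and that for *Ccl7* 0.74 at the lowest among fits that left out 1 library. Fibroblasts also express *Ccl2* and *Ccl7*, and the gate on CD45 and CD11b would leave them out. All 6 fibroblast markers listed had a log2 fold change above 0, and 4 of them had an unadjusted p under 0.05, against 4.2% of all genes in that direction, and no overlap, against 7.82%. Their summed level was 455 to 559 CPM in the Lyve-1- libraries and 1131, 881 and 3461 CPM in Lyve-1+ replicates 1, 2 and 3. Their part in the *Ccl2* and *Ccl7* values was not tested.

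Count ratios within a library do not depend on the scaling between libraries. The ratio of *Ccl7* to *Ccl12* counts was 9.2, 6.24 and 7.47 in Lyve-1- replicates 1, 2 and 3 and 13.2, 13.7 and 14.3 in Lyve-1+ replicates 1, 2 and 3. The ratio of *Ccl2* to *Ccl7* was 2.08, 2.2 and 2.09 in the Lyve-1- libraries and 1.54, 1.86 and 1.45 in the Lyve-1+ libraries. In both ratios the subsets were apart, although all 3 genes varied severalfold between libraries of one subset. The two-sided exact permutation p was 0.1 for each, the smallest that 3 libraries against 3 allow, and 0.14 after Benjamini-Hochberg adjustment over 7 ratios. The ratios of *Ccl2* to *Ccl12*, *Ccl6* to *Ccl9* and *Ccl8* to *Ccl2* were apart with the same values of p. The subsets overlapped for *Ccl24* to *Ccl2* (exact permutation p = 0.3, adjusted 0.35) and for *Ccl3* to *Ccl4* (exact permutation p = 0.7, adjusted 0.7). The pairs were chosen after levels had been seen, and the share of all gene pairs that are apart is not given here. *Ccl8* was also apart by its level alone.

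*Ccl3* and *Ccl4* encode macrophage inflammatory proteins that attract monocytes and T cells. *Ccl3* was at 178 CPM, 256 CPM and 58.8 CPM in the Lyve-1- libraries and at 222 CPM, 325 CPM and 22.3 CPM in the Lyve-1+ libraries. Replicate 3 was again lowest in each subset, and the subsets overlapped. Its log2 fold change was 0.21 (95% confidence interval -2.15 to 2.57, edgeR adjusted p = 1). *Ccl4* was at 97.2 CPM, 173 CPM and 49.4 CPM in the Lyve-1- libraries and at 119 CPM, 248 CPM and 35.7 CPM in the Lyve-1+ libraries, with a log2 fold change of 0.33 (95% confidence interval -1.14 to 1.81, edgeR adjusted p = 1). *Ccl3* had the widest spread of the 10 genes within subsets, an SD of 1.67 on the log2 scale, and 30.1% of all genes tested had a larger one. For *Ccl3* the interval holds 2 log2 units in either direction. Signs changed with the libraries used: the log2 fold change without Lyve-1- replicate 3 was -0.19 for *Ccl3* and -0.01 for *Ccl4*, and without Lyve-1+ replicate 2 it was -0.46 and -0.5.

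*Ccl6* and *Ccl9* encode related chemokines of myeloid cells that act on CCR1. *Ccl6* was at 1394 CPM, 1094 CPM and 1010 CPM in the Lyve-1- libraries and at 3032 CPM, 1961 CPM and 1047 CPM in the Lyve-1+ libraries. Lyve-1+ replicates 1 and 2 were above every Lyve-1- library, and replicate 3 was among them. The log2 fold change was 0.79 (95% confidence interval 0.09 to 1.48, edgeR adjusted p = 0.537). It was 0.25 without the 2 libraries with the most olfactory receptor genes detected and 1.07 without Lyve-1+ replicate 3. *Ccl9* was at 1055 CPM, 972 CPM and 962 CPM in the Lyve-1- libraries and at 1210 CPM, 1378 CPM and 784 CPM in the Lyve-1+ libraries. It was the steadiest of the 10 genes, with an SD within subsets of 0.305 on the log2 scale, where 89.3% of all genes had a larger one. Its log2 fold change was 0.17 (95% confidence interval -0.36 to 0.71, edgeR adjusted p = 1). It was -0.02 without Lyve-1+ replicate 2.

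*Ccl5* encodes RANTES, which acts on CCR1 and CCR3 and is made by T cells and NK cells as well as by myeloid cells. It was the one gene of the 10 with lower levels in the Lyve-1+ subset, at 46.8, 117 and 227 CPM in Lyve-1- replicates 1, 2 and 3 and at 3.12, 38.1 and 17.3 CPM in Lyve-1+ replicates 1, 2 and 3. The highest Lyve-1+ library was below the lowest Lyve-1- library. The means were 130.3 ± 90.8 and 19.5 ± 17.6 CPM (SD, n = 3), with a log2 fold change of -2.73 (95% confidence interval -4.81 to -0.65, edgeR adjusted p = 0.417). DESeq2 gave -2.76 and called it (DESeq2 adjusted p = 0.00468), and edgeR called it with age as a term (-3.03, edgeR adjusted p = 0.0023) and without a filter on low counts. Over 16 alternatives the log2 fold change ran from -3.69 to -1.58 and the adjusted p from 9.02e-05 to 1. Without the 2 libraries with the most olfactory receptor genes detected it was -1.58 (edgeR adjusted p = 0.921).

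The summed levels of T and NK cell markers and of dendritic cell markers differed in the same direction as *Ccl5*. Of 10 T and NK cell markers, 9 were in the table and 6 could be tested, with log2 fold changes from -3.29 for *Gzmb* to -0.02 for *Cd3d*. Of these, 1 had an unadjusted p under 0.05, against 3.5% of all genes in that direction, and 2 had no overlap, against 6.5%. The summed level of the 9 was 63.3, 71.1 and 120.3 CPM in Lyve-1- replicates 1, 2 and 3 and 14.2, 44.6 and 54.7 CPM in Lyve-1+ replicates 1, 2 and 3. *Cd3e* was counted in every library, and *Nkg7* was at 0 in 4 of the 6 libraries. The 6 dendritic cell markers had log2 fold changes from -2.87 for *Fscn1* to -0.43 for *Cd209a*, with 1 at an unadjusted p under 0.05 and 2 with no overlap. Their sum was 333, 623 and 905 CPM in the Lyve-1- libraries and 126, 206 and 319 CPM in the Lyve-1+ libraries. *Ccr7*, the receptor that leads mature dendritic cells to lymph nodes and a gene named here after its values were seen, was at 139, 458 and 504 CPM in the Lyve-1- libraries and 14.8, 59.7 and 107 CPM in the Lyve-1+ libraries. In these sums and in *Ccr7* the subsets did not overlap, and Lyve-1- replicate 3 was highest, as for *Ccl5*. Their part in the *Ccl5* difference was not tested.

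**Figure D3:**
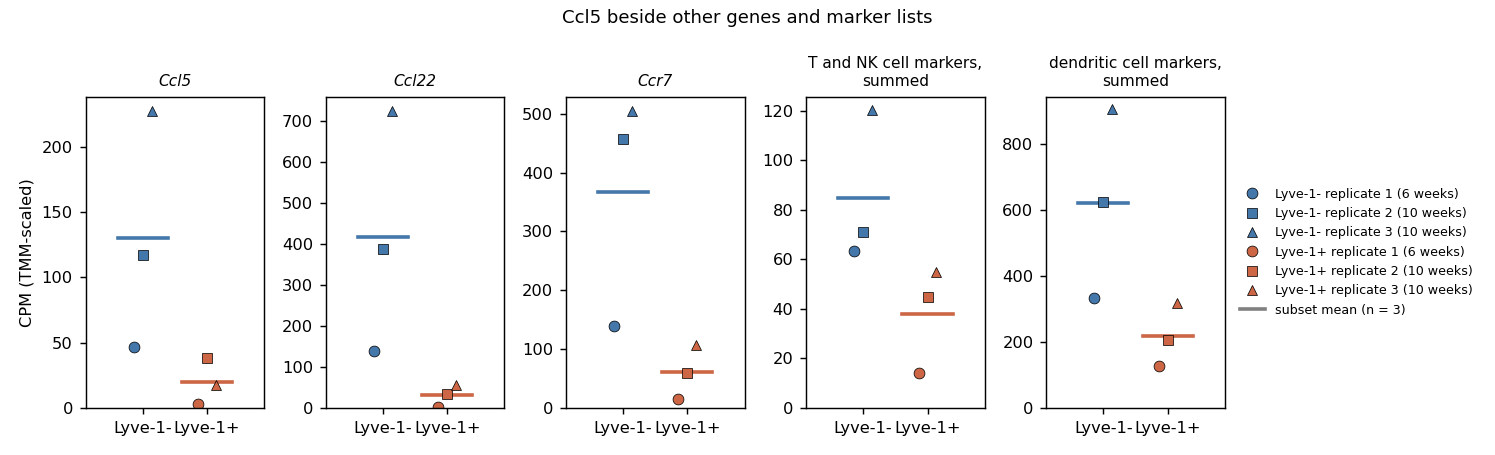
Points give CPM in each library for *Ccl5*, *Ccl22* and *Ccr7* and the summed CPM of the T and NK cell markers and of the dendritic cell markers, each on a linear axis from 0, with bars at the subset means (n = 3). Lyve-1- replicate 3 is highest in all 5 panels, from 120.3 to 905 CPM, and Lyve-1+ replicate 1 is lowest.

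Of the other 14 CC chemokine genes in the mouse table, 4 could be tested, 1 with a higher and 3 with a lower Lyve-1+ level, and 0 were called. At an unadjusted p under 0.05 there were 2, both lower, against 3.5% of all genes in that direction. The lowest fold change was that of *Ccl22*, a dendritic cell and macrophage product that acts on CCR4. It was at 139, 387 and 722 CPM in the Lyve-1- libraries and at 3.28, 33.7 and 54.8 CPM in the Lyve-1+ libraries, with no overlap and a log2 fold change of -3.77 (95% confidence interval -6.71 to -0.83, edgeR adjusted p = 0.462). The largest value in the other direction was 0.58 for the eosinophil attractant *Ccl11* (eotaxin), with overlapping libraries (95% confidence interval -1.24 to 2.4, edgeR adjusted p = 1). For 5 of the 14, *Ccl19*, *Ccl21a*, *Ccl21b*, *Ccl21c* and *Ccl27b*, no read was counted. The *Ccl21* and *Ccl27* genes have near-identical copies among which counting can lose reads.

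Of 15 CC chemokine receptor genes, 11 could be tested, 3 with higher and 8 with lower Lyve-1+ levels, and 0 were called, against 0.112% of all genes. At an unadjusted p under 0.05 there were 3, all lower, against 3.5% of all genes in that direction. *Ccr2*, the receptor of *Ccl2*, *Ccl7* and *Ccl12* and a mark of monocyte-derived cells, was at 532, 564 and 294 CPM in the Lyve-1- libraries and at 173, 365 and 143 CPM in the Lyve-1+ libraries. The libraries overlapped, with a log2 fold change of -1.03 (95% confidence interval -1.82 to -0.25, edgeR adjusted p = 0.386). *Ccr1* was at 103 to 172 CPM and 169 to 192 CPM (log2 fold change 0.34, edgeR adjusted p = 1). *Ccr8*, the receptor of *Ccl8*, had 9 counts in Lyve-1- replicate 3 and 0 in the other 5 libraries, where 0 allows up to 0.144 to 0.378 CPM.

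*Ccr3*, the receptor of *Ccl24*, had the lowest fold change among the receptors. It was at 57, 24.4 and 70.1 CPM in the Lyve-1- libraries and at 8.69, 6.95 and 0 CPM in the Lyve-1+ libraries, where 0 allows up to 0.378 CPM. *Ccl24* and *Ccr3* thus differed in opposite directions, with no overlap in either. The log2 fold change of *Ccr3* was -3.26 (95% confidence interval -5.72 to -0.8, edgeR adjusted p = 0.391), a fitted value that depends on the count of 0. Of 6 eosinophil markers, 5 were in the table and 2 could be tested, 1 higher and 1 lower. *Epx* and *Prg2*, which define eosinophils, were at 0 in Lyve-1- replicates 1 and 2 and at 6.27 and 6.41 CPM in Lyve-1- replicate 3, the library with the highest *Ccr3* level. In the Lyve-1+ libraries both were under 1 CPM. Lyve-1- replicate 3 is also the library with counts for 652 of 1122 olfactory receptor genes. *Gzma* and *Ms4a2*, markers of other cells, were likewise at 0 in Lyve-1- replicates 1 and 2 and at 9.33 and 8.89 CPM in replicate 3. Whether levels this low in that library are background was not tested. The part of eosinophils in the *Ccr3* values was not tested. The summed level of the list was 2.94 to 28.9 CPM in the Lyve-1- libraries and 2.16 to 34.9 CPM in the Lyve-1+ libraries. *Ccr6* had the largest value in the higher direction, 0.56, at levels from 0 to 8.16 CPM.

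**Figure D4:**
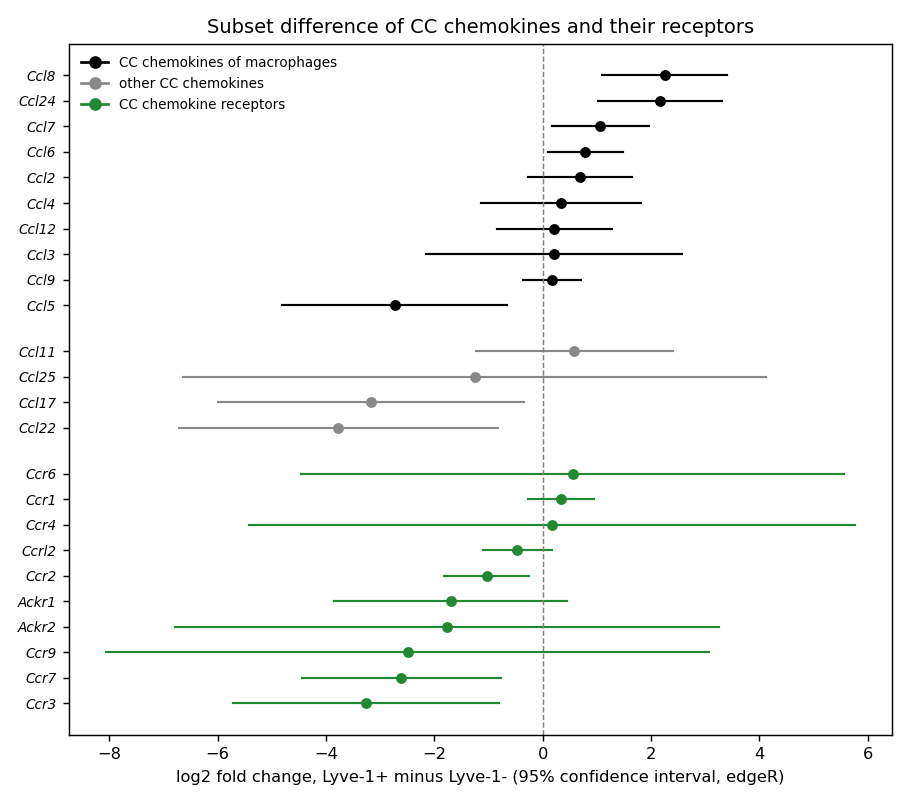
Points give the log2 fold change (Lyve-1+ minus Lyve-1-) and lines its 95% confidence interval from edgeR, for the 10 CC chemokine genes, the 4 other CC chemokines tested and 10 of the 11 receptors tested. The intervals of *Ccl8*, *Ccl24*, *Ccl7* and *Ccl6* lie above 0 and that of *Ccl5* lies below it.

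NF-kB transcription factors drive many inducible chemokine genes. Of 17 genes of this pathway, 16 had lower Lyve-1+ levels, where 50.6% of all genes did, and 10 of them had an unadjusted p under 0.05, against 3.5% of all genes in that direction. By edgeR 0 were called, and the median log2 fold change was -0.6. *Tnip3*, an inhibitor of the pathway, had the lowest value (log2 fold change -1.6, edgeR adjusted p = 0.162), and *Bcl3* had 0.03 (edgeR adjusted p = 1). Beside these values, the chemokines *Ccl2*, *Ccl3* and *Ccl4* had log2 fold changes of 0.68, 0.21 and 0.33, and *Ccl5* had -2.73. The signs of *Ccl3* and *Ccl4* changed in some fits that left out 1 library. *Ccl2* was at 0.05 without the 2 libraries with the most olfactory receptor genes detected. A link between the pathway genes and the chemokines was not tested. Immediate-early genes respond to tissue digestion among other stimuli. Their list, which also holds the heat-shock genes *Hspa1a* and *Hspa1b*, had 13 of 15 members above 0, against 49.4% of all genes. Its median was 0.19. *Jun* had the largest value, 1.06 (edgeR adjusted p = 0.123), and *Zfp36* the lowest, -0.04 (edgeR adjusted p = 1).

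The library profiles of some members resembled each other. Likeness was taken as the root mean square difference in log2 CPM, each gene centred on its mean over the 6 libraries, and serves as a description. Of 13347 other genes, *Ccl7* was the sixth most like *Ccl2* (0.23), and *Ccl2* was the fourth most like *Ccl7*. *Ccl12* was at place 13 for *Ccl2* (0.29), and *Ccl4* at place 27 for *Ccl3* (0.53). For *Ccl8*, the nearest other member was *Ccl7* at place 191 (0.87). The genes nearest to *Ccl2* were *Msr1* (0.17), *Ier3* (0.21) and *Eif2ak2* (0.22), and those nearest to *Ccl7* were *Col4a3bp* (0.14), *Tlr8* (0.2) and *Plod1* (0.23). Those nearest to *Ccl8* were *Ddx60* (0.29), *Gm4951* (0.32) and *Timp2* (0.33). *Ccl24* had *Prune2* and *P2ry12* (both 0.34) and *Nr1d1* (0.36), *Ccl3* had *Zfp358* (0.24), *Il10* (0.29) and *Fcgr4* (0.32), and *Ccl4* had *Nsun5* (0.25), *Pnpt1* (0.26) and *BC004004* (0.28). *Ccl6* had *Sdf2l1* (0.09), *Arhgap12* and *Scamp2* (both 0.15), *Ccl9* had *Arf1* (0.08), *Myo1c* (0.09) and *Supt16* (0.1), and *Ccl12* had *Map1s* (0.15), *Cd34* and *Ier3* (both 0.18). *Ccl5* had no close match, with 0.49 for *Gm20939* and 0.6 for *Sycp2* and *Strip2*.

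Whether the 10 genes differed between subsets by other amounts at 6 and 10 weeks was fitted as an interaction in edgeR. At 6 weeks there was 1 library per subset, so the fit cannot decide this and only its size is given. The largest in either direction was that of *Ccl8*, whose subset difference was 1.9 lower at 10 weeks on the log2 scale. Between same-numbered libraries, *Ccl2*, *Ccl6*, *Ccl7*, *Ccl8* and *Ccl24* were higher in the Lyve-1+ library in 3 of 3 pairs. *Ccl5* was lower in 3 of 3, while *Ccl3*, *Ccl4*, *Ccl9* and *Ccl12* were higher in 2 of 3. For *Ccl5*, *Ccl8* and *Ccl24*, whose subsets did not overlap, any matching of libraries gives 3 of 3. The labels do not say whether same-numbered libraries share mice.

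**Figure D5:**
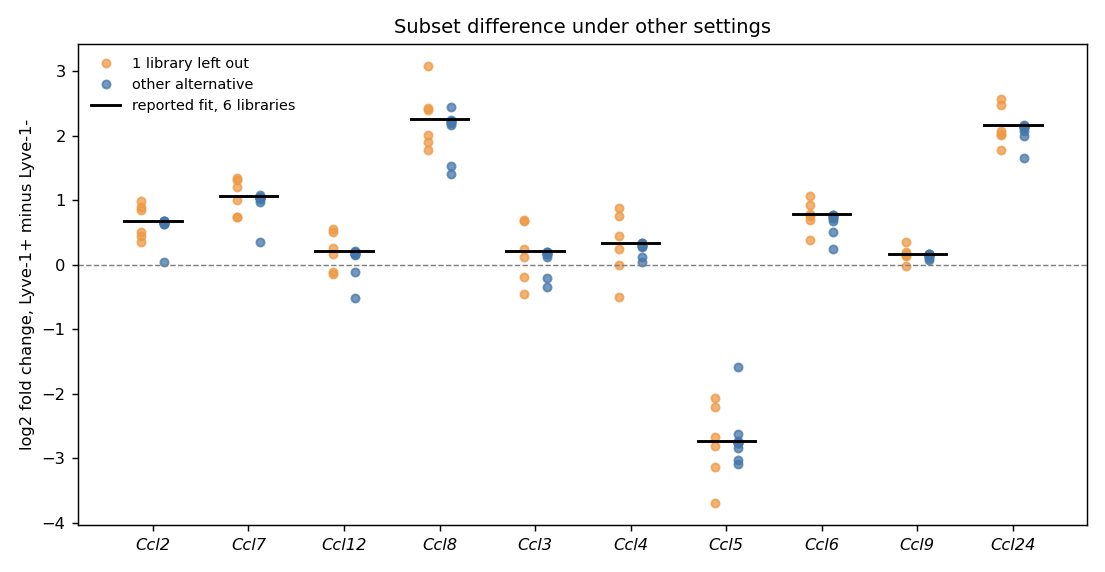
For each CC chemokine gene, a black line gives the log2 fold change of the reported fit, orange points give it with 1 library left out and blue points give it under the other alternatives. *Ccl8* and *Ccl24* stay at or above 1.4 and *Ccl5* at or below -1.58, while *Ccl3*, *Ccl4*, *Ccl9* and *Ccl12* fall on both sides of 0.

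The remaining marker lists give the other cells that the sort could hold. Summed levels in the Lyve-1- and Lyve-1+ libraries were 3620 to 7076 and 1902 to 4661 CPM for 5 monocyte markers and 3.02 to 34 and 10.9 to 87.2 CPM for 5 B cell markers. They were 72.3 to 119 and 87.6 to 463 CPM for neutrophil markers, 39.3 to 90.2 and 41.5 to 248.9 CPM for mast cell markers, and 39.9 to 278 and 53.2 to 99.2 CPM for epithelial markers. In each of these 5 sums the subsets overlapped. Single markers stood apart in 3 of the lists. Of all genes, 7.82% were apart with higher and 6.5% with lower Lyve-1+ levels. The neutrophil markers *S100a8* and *S100a9* (log2 fold changes 2.82 and 2.76) and the mast cell marker *Cpa3* (2.84) were higher in every Lyve-1+ library, and *Kit* (-2.0) and *Epcam* (-1.64) were lower. By edgeR 0 markers of these lists were called.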

How the data were processed

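Bulk RNA-seq of 6 libraries of sorted mammary gland macrophages was analysed. The authors mapped paired 50-bp reads to mm10 with HISAT2 2.0.2, counted reads per gene with featureCounts 1.5.0 and deposited raw counts per gene symbol, without normalization; the strand setting is not given in the sources used here. The kit was a stranded total RNA kit. A further 6-week library that the methods describe as removed was not analysed here.

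Groups followed the sorted cell type in the labels. Genes were kept by filterByExpr, scaled by TMM and fitted with edgeR 4.0.16 (R 4.3.3, limma 3.58.1; robust quasi-likelihood F test, subset as the only term), with Benjamini-Hochberg adjustment over 13348 genes. A gene was called where its adjusted p was under 0.01 and its log2 fold change, in either direction, lay between 1 and 10. DESeq2 1.42.0 was an alternative, beside other scalings, filters, a replicate block, age and libraries left out. Log2 CPM used a prior count of 2. The scripts were tested on simulated data.

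Positions and exon lengths came from GENCODE M21, promoters from RefSeq. Of 24061 symbols, 22749 matched directly, 920 through a synonym and 392 not.

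The members and lists were chosen with earlier results of these data known. All members were named, with the highest and lowest fold change of the chemokine, receptor, NF-kB and immediate-early lists and the receptors *Ccr1*, *Ccr2*, *Ccr3* and *Ccr8*; some listed genes are not reported here. Lists were other CC chemokines, their receptors, NF-kB and immediate-early genes, and markers of macrophages, monocytes, T and NK cells, B cells, eosinophils, neutrophils, mast cells, dendritic cells, fibroblasts and epithelium.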

Additional observations from a re-analysis of the deposited data

How the results depend on the processing

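Depth of 6478007 to 21406839 counts gave every member at least 41 counts per library, the lowest being *Ccl5* in Lyve-1+ replicate 1. The count of members called was 0 and was 2 with DESeq2, 3 without a filter on low counts, 3 with the replicate block (*Ccl5*, *Ccl7* and *Ccl8*), 1 with age as a term and 0 to 1 with 1 library left out. The count of all genes called was 15. It was 145 with DESeq2, 188 without a filter, 32 with at least 10 counts in every library and 140 with the replicate block. It was 58 with age as a term and 84 at an adjusted p under 0.05. Without the 2 libraries with the most olfactory receptor genes detected it was 0, and with 1 library left out it was 1 to 81. Members at an unadjusted p under 0.05 numbered 5, with 3 in the 10-week libraries alone, 2 without the 2 libraries and 2 to 5 with 1 library left out (the 2 without Lyve-1- replicate 2). Members whose subsets did not overlap numbered 3, and 3 to 7 with 1 library left out, the 7 without Lyve-1+ replicate 3, where 22.1% of all genes did not overlap.

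Of 160 member values under alternatives, 138 kept their direction and their side of the threshold, 11 passed it and 11 changed sign. The alternative at an adjusted p under 0.05 used the reported fit, so its values could not change sign. The sign changes were -0.21 for *Ccl3* with the replicate block, -0.12 for *Ccl12* in the 10-week libraries, and -0.34 for *Ccl3* and -0.52 for *Ccl12* without the 2 libraries. With 1 library left out, *Ccl3* ran from -0.46 to 0.7, *Ccl4* from -0.5 to 0.88, *Ccl9* from -0.02 to 0.35 and *Ccl12* from -0.14 to 0.56. The cause was not tested. Deviations from the subset means over all genes tested correlated at -0.046, -0.002 and -0.147 between same-numbered libraries. With 3 libraries per subset and all genes weighted alike, these values cannot decide whether the libraries were paired. The block is therefore given as an alternative only. Same-numbered libraries share age, and the labels do not say whether they share mice. With the block *Ccl7* was at 1.08 (edgeR adjusted p = 0.00691) and *Ccl2* at 0.68 (edgeR adjusted p = 0.127).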
